A study of Mus musculus with 12 samples.

Results

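The KO-only acetylated regions are stretches of chromatin that carried a called peak of histone H3 acetylation in every library from T helper 17 (Th17) cells lacking the glucose transporter GLUT3 and in no wild-type library. They were found by merging the paired-end peak lists of the 6 ChIP libraries wherever peaks overlapped or touched, and by keeping the autosomal regions with a peak in 3 of 3 knockout (KO) and 0 of 3 wild-type (WT) libraries. This gave 1167 of 56643 union regions, or 2.11% of the 55207 on autosomes. The reverse pattern (3 of 3 WT libraries, 0 of 3 KO) held for 2759 regions (5%), and 19607 regions had a peak in 6 of 6 libraries.

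All cells were naive CD4+ T cells of C57BL/6 mice, differentiated in vitro under Th17 conditions for 3 days and then stimulated for 3 h with PMA and ionomycin while Bref A and Monensin were present. The KO group carried floxed Slc2a3, the gene for GLUT3, together with Cd4-cre, which removes floxed sequence in T cells from the CD4-expressing stage of thymic development onward; the labels do not say whether the WT group carried Cd4-cre. Acetylation of lysines 9 and 14 of histone H3 was profiled with RELACS, in which the chromatin of each sample is barcoded inside nuclei, and the 6 samples were pooled into 1 immunoprecipitation. The labels do not tie the 3 libraries of a genotype to separate mice, so the spread between them may be technical.

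Acetylation of histone H3 at lysines 9 and 14 is laid down by acetyltransferases that draw on acetyl-CoA, and it marks nucleosomes at active promoters and enhancers. Promoter peaks sit at gene starts and are shared by many cell types, whereas distal peaks inside introns and between genes differ more between cell states and often mark enhancers. GLUT3 is a high-affinity glucose transporter of activated T cells, and glucose carbon is a source of the acetyl-CoA used for histone acetylation.

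The libraries differed in depth. Mean fragment coverage, recovered from the fold and p of the peaks, was 3.99, 3.48 and 2.97 fragments per base in WT replicates 1 to 3 and 1.85, 2.29 and 1.92 in the KO replicates. The WT mean was 3.48 ± 0.509 and the KO mean 2.02 ± 0.236 (SD, n = 3 each; two-sided exact permutation p = 0.1, the smallest that 3 against 3 allows). At its own mean background a WT library called a peak from a fold enrichment of 3.15 to 3.52 and a KO library from 3.65 to 3.86; where the local background is higher, weaker folds are called too. The part of depth in the KO-only pattern was not tested. KO replicate 3 had 11 peaks on chromosome Y and the other libraries had 1 or 2, so the animals behind the libraries may have differed; without it the rule gave 1939 regions, 9.59% of them within 2 kb of a gene end. Over Slc2a3 itself, the peak length in WT replicates 1 to 3 was 11794, 12015 and 12287 bp, and in KO replicates it was 3822, 5395 and 6128 bp.

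Few KO-only regions lay at gene starts. RefSeq start windows of 300 bases (250 before to 50 after an annotated start, GRCm38.p6) were overlapped by KO-only regions in 38 cases, from 33 genes, of which 16 are protein-coding and 17 are long non-coding RNA (lncRNA) genes. The 5 windows below were picked after their sequences were seen and do not stand for all 38. Sh3bgrl2 and Sema3c are protein-coding starts with 32 and 42 CpG dinucleotides. Klrk1, 4930471E19Rik and Gm35865, with 4, 9 and 2, show a match to the AP-1 pattern that 8 of the 38 windows hold. The match at Gm35865 is TGAATCA, which differs from the usual AP-1 sites TGACTCA and TGAGTCA. Each is written 5′ to 3′ on the strand of its gene, and capitals mark matches to any of 8 searched motifs.
Sh3bgrl2, chr9:83548088-83548387, strand +: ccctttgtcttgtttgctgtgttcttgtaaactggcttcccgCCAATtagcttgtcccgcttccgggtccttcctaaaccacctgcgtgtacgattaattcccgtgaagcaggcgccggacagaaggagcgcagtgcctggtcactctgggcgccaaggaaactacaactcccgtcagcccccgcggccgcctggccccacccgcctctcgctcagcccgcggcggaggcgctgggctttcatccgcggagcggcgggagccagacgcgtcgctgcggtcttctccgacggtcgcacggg
Sema3c, chr5:17574566-17574865, strand +: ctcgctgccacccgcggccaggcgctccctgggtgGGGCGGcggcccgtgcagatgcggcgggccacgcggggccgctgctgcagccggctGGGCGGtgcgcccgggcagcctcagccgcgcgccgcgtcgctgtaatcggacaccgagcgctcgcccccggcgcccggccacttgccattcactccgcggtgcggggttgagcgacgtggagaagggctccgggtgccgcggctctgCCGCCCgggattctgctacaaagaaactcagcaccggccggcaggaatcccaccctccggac
Klrk1, chr6:129623815-129624114, strand -: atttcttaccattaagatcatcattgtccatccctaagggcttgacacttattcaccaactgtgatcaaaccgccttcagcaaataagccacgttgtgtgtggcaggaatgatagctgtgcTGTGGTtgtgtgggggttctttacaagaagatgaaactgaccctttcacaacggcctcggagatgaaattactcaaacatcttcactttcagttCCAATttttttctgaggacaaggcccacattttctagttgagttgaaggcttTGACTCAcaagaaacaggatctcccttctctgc
4930471E19Rik, chr10:120636058-120636357, strand -: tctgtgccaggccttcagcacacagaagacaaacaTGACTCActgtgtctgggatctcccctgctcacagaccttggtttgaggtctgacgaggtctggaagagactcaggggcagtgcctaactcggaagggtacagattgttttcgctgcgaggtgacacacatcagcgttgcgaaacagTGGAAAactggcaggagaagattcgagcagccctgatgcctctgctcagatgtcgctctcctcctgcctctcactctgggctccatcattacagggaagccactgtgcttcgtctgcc
Gm35865, chr10:121705249-121705548, strand -: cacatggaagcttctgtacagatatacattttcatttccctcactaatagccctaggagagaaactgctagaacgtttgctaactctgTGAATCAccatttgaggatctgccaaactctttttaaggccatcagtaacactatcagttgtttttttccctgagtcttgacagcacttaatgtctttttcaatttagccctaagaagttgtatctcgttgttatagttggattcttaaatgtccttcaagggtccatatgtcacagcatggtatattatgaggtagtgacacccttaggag

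The motifs were searched on both strands as the GC box (GGGCGG), the CCAAT box (CCAAT), the TATA box (TATAAA), the AP-1 site (TGANTCA), the cAMP response element (TGACGTCA), the E-box (CACGTG), the NFAT core (TGGAAA) and a RUNX site (TGTGGT). The median GC content of the 38 windows was 47.7%, against 61.7% in the 10847 windows under regions with a peak in 6 of 6 libraries, 57.3% in the 211 windows under WT-only regions and 53.0% in all 31365 autosomal windows. At least 10 CpG dinucleotides were present in 26.3% of the KO-only windows, 57.3% of the WT-only windows, 83.8% of the 6-of-6 windows and 43.9% of all windows. The GC box, bound by SP and KLF factors, was present in 18.4% of the KO-only windows and 36.0% of all windows. The AP-1 pattern allowed any middle base, whereas the sites usually bound by FOS, JUN and BATF dimers have C or G there. It was matched in 8 of 38 KO-only windows (21.1%), 5.21% of WT-only windows, 4.86% of 6-of-6 windows and 7.85% of all windows. Counted by gene, 7 of 33 genes with a KO-only window and 2330 of 25720 genes in all had a match to the AP-1 pattern. The CCAAT box was present in 36.8% of KO-only windows and 37.3% of all windows, the RUNX site in 15.8% and 16.7%, the NFAT core in 7.89% and 21.5%, and the TATA box in 5.26% and 13.6%. No KO-only window held a cAMP response element or an E-box, which 1.83% and 7.14% of all windows held. These shares rest on few windows, windows of 1 gene can overlap, and a match is a description of letters rather than of binding.

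The 5 windows also differ in the values behind them. Fold enrichment, here and below the authors' own value for the strongest peak of a library in the region, was 5.13, 5.02 and 10.4 at Sh3bgrl2 (an SH3-binding glutamic acid-rich-like protein) and 5.15, 5.03 and 7.89 at Sema3c (a secreted semaphorin) in KO replicates 1 to 3. KO replicate 3 was the highest at both starts. At Klrk1, which encodes the activating receptor NKG2D, the folds were 4.52, 3.22 and 4.82. At the lncRNA gene 4930471E19Rik they were 6.66, 4.91 and 7.97, and at Gm35865, the window of highest mean fold, 3.45, 14.9 and 6.11. The Gm35865 value of KO replicate 2 stood well apart from the other 2. In the authors' deposited table the best window in these regions had a log2 fold change, KO over WT, of 0.93 at Sh3bgrl2, 1.74 at Sema3c, 1.22 at Klrk1, 2.03 at 4930471E19Rik and 2.07 at Gm35865. The Sh3bgrl2 region is also 1 of 8 KO-only regions that had a peak in 1 WT library when peaks were called on single reads.

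The KO-only regions as a set were of modest strength. Median fold enrichment was 4.12, 3.96 and 4.15 in KO replicates 1 to 3, and single values ranged from 1.79 to 18.4. Regions with a peak in 6 of 6 libraries had medians of 7.14, 6.98 and 7.19 in the same libraries. The median KO-only region thus ranked at percentile 35.9, 37.8 and 37.1 of its library's own peaks. The median peak height was 27, 34 and 28 fragments. Of the 1167 regions, 988 (84.7%) held a single peak in each KO library, and 470 (40.3%) had a fold in their weakest KO library above 3.52, the highest of the WT calling limits. The width of a KO-only region had a median of 967 bp and a range of 269 to 12020 bp, close to the median of 962 bp for WT-only regions and below the 2420 bp of 6-of-6 regions. All these values come from the peaks that chose the regions and are given without a test.

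**Figure D1:**
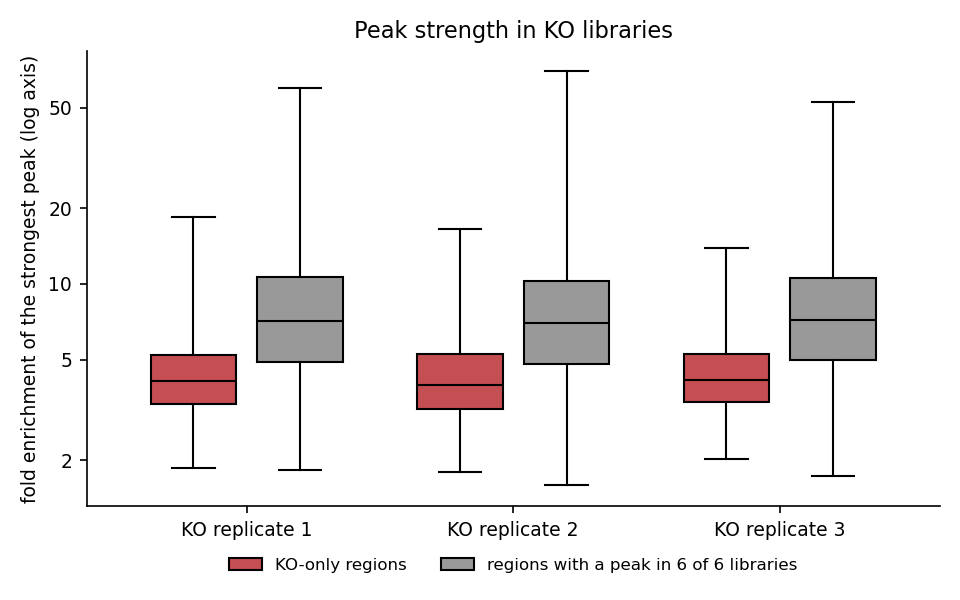
Fold enrichment of the strongest peak in each region (log axis) in the 3 KO libraries, for the 1167 KO-only regions and the 19607 regions with a peak in 6 of 6 libraries; boxes give quartiles and median, whiskers the full range. The KO-only medians, 3.96 to 4.15, lie below those of the shared regions, 6.98 to 7.19.

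The threshold passes through a continuum. The 5 regions just inside it had a -log10 q of 3.00 to 3.02 in their weakest KO library and lay inside Arhgap32, Ppp4r1 and Mrpl33 and nearest to Dio3 and Cacng6. The folds of the weakest of these, in Arhgap32 (a GTPase-activating protein), were 2.06, 2.01 and 2.68. The 5 regions just outside had peaks in 3 of 3 KO libraries and in 1 WT library, with a WT -log10 q of 3.01 to 3.02 and a WT fold of 2.27 to 2.57. They lay inside Nt5c3 and Gnpda1 and nearest to Eef2kmt, Atp8a1 and Tasp1. The folds near Eef2kmt, 4.55, 5.95 and 4.30 in the KO libraries, were higher than those at Arhgap32. In all, 872 autosomal regions had a peak in 3 KO libraries and 1 WT library, and 2096 had one in 2 KO libraries and no WT library. Without KO replicate 1, 2 or 3 the rule gave 2193, 1778 or 1939 regions.

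To see how a library not used for the choice behaved, regions were chosen on 2 WT and 2 KO libraries in each of the 9 possible ways, a step added after the data had been seen. The choice gave 2028 to 2918 regions. A peak was present in the left-out KO library for 58.8% to 75.4% of them (median 64.8%) and in the left-out WT library for 11.7% to 27.0% (median 15.8%). The KO share was the higher in 9 of 9 combinations, which share libraries and are not independent. Each choice asked for peaks in 2 KO libraries and for none in 2 WT libraries, which favours this direction. A left-out library is like the others of its group in genotype and also in depth. The shares cannot tell these apart, and no such split is given for WT-only regions. No share over all autosomal regions stands beside them, so nothing is read from the shares or from the 9 of 9 count. The WT share was highest, 24.8% to 27.0%, in the 3 combinations that left out WT replicate 1, the deepest library.

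**Figure D2:**
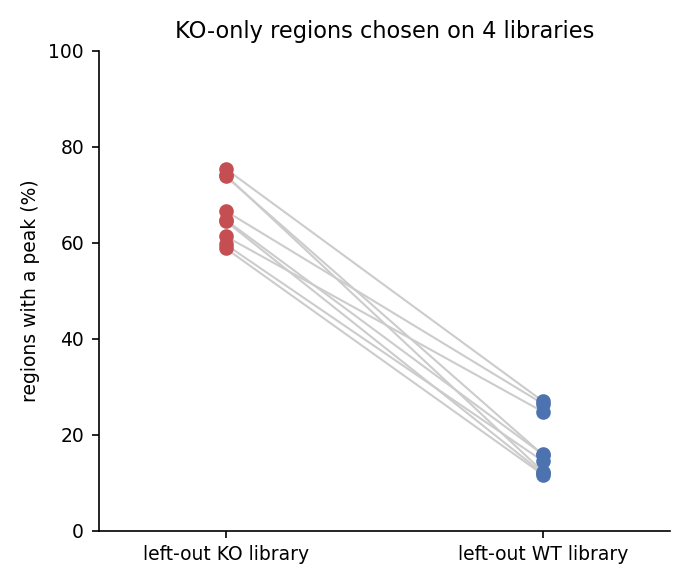
Share of regions with a peak (%) in the KO library and the WT library that were left out when regions were chosen on the other 4 libraries; each line joins the 2 shares of 1 of the 9 combinations. The KO shares lie between 58.8% and 75.4% and the WT shares between 11.7% and 27.0%.

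The authors also called peaks on single reads. In those lists 1159 of the 1167 regions had no peak in any WT library, and 191 (16.4%) had a peak in 3 of 3 KO libraries, 182 in 2, 252 in 1 and 542 (46.4%) in none. The single-read lists come from the same libraries. No share over all autosomal regions is given beside these counts, so nothing is read from them. In the authors' deposited table, 624 of the regions overlapped a region that had been tested, 559 (47.9% of 1167) overlapped one called higher in KO at an FDR under 0.05 and 0 overlapped one called lower; across the 40909 regions of that table, 12.7% were called higher and 46.3% lower. The median log2 fold change of those 559 in the authors' deposited table was 1.64, with a range of 0.59 to 5.05. The table and the rule use the same contrast, so nothing is read from that count.

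KO-only regions were seldom at gene ends, and they lay over protein-coding genes about as often as all autosomal regions. A gene span was overlapped by 698 (59.8%, 95% Wilson interval 57.0% to 62.6%). The share was 49.3% of WT-only, 74.8% of 6-of-6 and 61.6% of all autosomal regions. Of 1167, 111 (9.51%; 95% Wilson interval 7.96% to 11.3%) came within 2 kb of an end of a protein-coding gene, against 15.3% of WT-only regions, 49.2% of 6-of-6 regions and 25.3% of all autosomal regions. A further 629 (53.9%) lay elsewhere inside a gene, against 39.2%, 28.7% and 39.9%. Outside genes, 258 (22.1%) lay within 50 kb of one and 169 (14.5%) lay farther. Within 1 kb of an annotated start were 31 of the 1123 regions with a start window on their chromosome (2.76%), against 7.68% of WT-only, 40.7% of 6-of-6 and 17.9% of all regions. The median distance to the nearest start was 36.2 kb for KO-only, 33.7 kb for WT-only and 8.09 kb for 6-of-6 regions. Where the strand was known, 44 of the gene-end regions touched a 5′ end and 43 a 3′ end only, a 5′ share of 50.6% against 70.4% of WT-only and 93.6% of 6-of-6 regions. Of the 469 regions outside protein-coding genes, 119 (25.4%) overlapped an lncRNA gene, against 19.4% of WT-only and 28.8% of 6-of-6 regions. The intervals cover counting error only, and neighbouring regions are not independent.

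**Figure D3:**
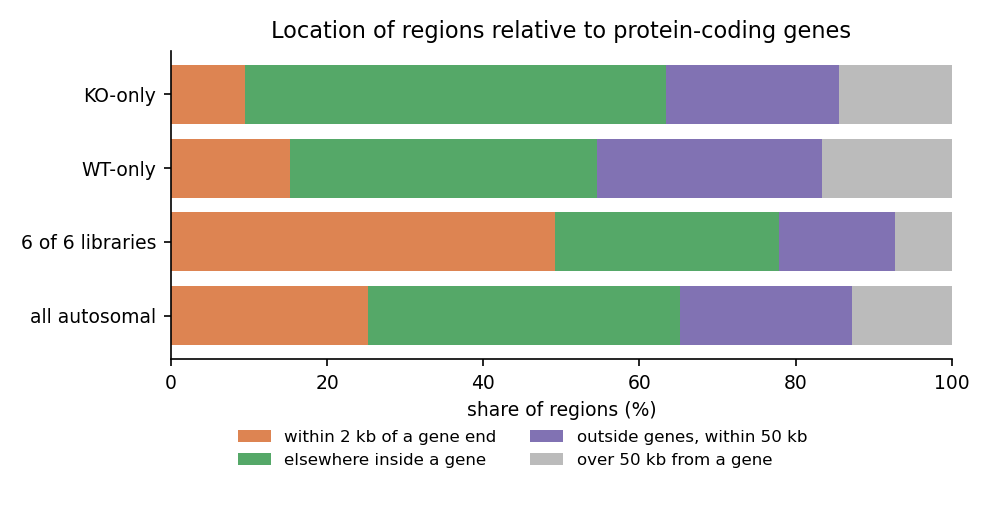
Share of regions (%) by location relative to GRCm38 protein-coding genes for KO-only, WT-only, 6-of-6 and all autosomal regions. The gene-end share is 9.51% for KO-only regions and 49.2% for regions with a peak in 6 of 6 libraries.

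A KO-only region lay within 2 kb of an end of 120 genes, 0.581% of the 20665 on autosomes, and the 12 with the highest mean folds are described here. At E2f8, an atypical E2F that represses cell cycle genes, folds were 9.57, 8.87 and 8.40 over 4470 bp at the 3′ end. The 3 libraries were close together there. At Sirpa, the receptor for CD47, they were 12.7, 5.63 and 7.76, with KO replicate 1 the highest. The region at Zbtb16, which encodes PLZF, the transcription factor of natural killer T and other innate-like T cells, was 392 bp wide with folds of 6.11, 9.20 and 4.70. Acoxl and Bcl2l11 shared 1 region, which ended 393 bp before an annotated start of Bcl2l11, the gene for the pro-apoptotic protein BIM. Its folds were 9.71, 4.55 and 3.73, so that KO replicate 1 was far above the others.

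Most of the remaining gene-end regions lay at 3′ ends. Folds were 7.30, 8.15 and 7.65 at Cdkal1 (a tRNA-modifying enzyme), 5.80, 9.65 and 6.36 at Tbkbp1 (an adaptor of the kinase TBK1), 6.32, 4.66 and 7.86 at Slc6a12 (a betaine and GABA transporter) and 4.55, 7.40 and 5.79 at Smurf1 (a ubiquitin ligase). At the 5′ end of the Ndst3 span, a heparan sulfate-modifying enzyme, they were 6.37, 6.66 and 5.72. Spread between replicates was widest at Tbkbp1 and narrowest at Cdkal1 in this group. A single KO-only region overlapped a microRNA gene, Mir7014, at the end of Ecm1, with folds of 2.72, 6.13 and 2.48; it was singled out after its values had been seen.

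The strongest KO-only regions were distal. The highest mean fold was found inside Dst, the gene for the cytoskeletal linker dystonin, at chr1:34250120-34252671, with folds of 18.4, 15.9 and 13.1. The second, at chr12:109399223-109405087, lay 47.4 kb from Dlk1, an imprinted gene for a Notch-family ligand-like protein, with 13.1, 14.6 and 10.3. The third, chr2:128305572-128310564, lay 143 kb from Bcl2l11, with 10.5, 16.5 and 10.3. The fourth, chr5:118438408-118440098, lay 120 kb from Med13l, a subunit of the Mediator kinase module, with 11.98, 13.5 and 11.1. All 3 KO libraries exceeded a fold of 10 in these 4 regions.

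Of the other 6, 3 belonged to Sox6 or its flank. The remaining ones lay inside Parva, the gene for the integrin-linked adaptor alpha-parvin (8.24, 12.04 and 9.44), 137 kb from Qdpr, which encodes dihydropteridine reductase (4.42, 10.8 and 13.9), and 3.80 kb from Jakmip2 (11.7, 6.66 and 10.4). The Qdpr region varied most between replicates, with KO replicate 1 low. None of the 10 had a single-read peak in a WT library, which was also so for 1159 of all 1167 KO-only regions. In the authors' deposited table the log2 fold changes of the 10 ran from 2.04 at Dst to 4.01 at the outermost of the Sox6 regions.

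KO-only regions were unevenly spread along chromosomes. They made up 3.25% of the regions on chromosome 14 and 3.14% on chromosome 2, but 1.22% on chromosome 15 and 1.27% on chromosome 17. Of 1105 bins of 2 Mb, 560 held none and 13 held 8 or more. The bins starting at 128 Mb of chromosome 2 and at 114 Mb of chromosome 7 held 22 each, or 24.2% and 17.3% of their regions. When KO-only regions no more than 50 kb apart were chained, 52 clusters of 3 or more held 236 of them (20.2%), 13 clusters had 5 or more and 21 lay over no protein-coding gene. WT-only regions formed 189 clusters holding 29.0% of them, 53 of which had 5 or more. Of the 52 KO-only clusters, 2 also held a WT-only region, where 5% of all autosomal regions were WT-only. No share over other stretches of like size is given beside this count, so nothing is read from it.

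The largest cluster lay at Sox6, which encodes an SOX-family transcription factor of cartilage, muscle, erythroid and neural development. It held 19 KO-only regions over 172 kb (chr7:115364398-115536151), of which 12 lay beyond the 3′ end of the gene and 7 inside it. Of this stretch, paired-end peaks took up 7389, 5226 and 7552 bp in WT replicates 1 to 3, against 105793, 111697 and 67082 bp in KO replicates 1 to 3. Every KO library was above every WT library, a direction that the choice of the regions favours. KO replicate 3 was the lowest of the KO group. The 5 widest KO-only regions were all here, at 12020, 10061, 8739, 7153 and 7129 bp. Folds in the widest, inside Sox6, were 7.36, 11.6 and 10.9. The WT libraries did have peaks in this stretch: 4 regions had a peak in 6 of 6 libraries, and a further 28 had other patterns. Single-read peaks covered 2299, 686 and 1840 bp in WT and 56510, 55569 and 29675 bp in KO.

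The second cluster, of 17 KO-only regions over 169 kb (chr2:128239537-128408731), lay over no protein-coding gene. It overlapped Morrbid, an lncRNA gene known for controlling Bcl2l11 in myeloid and CD8 T cells, and the nearest protein-coding gene was Bcl2l11, 77.0 kb away; Morrbid was named after these values were seen. Peak length was 5431, 5487 and 5727 bp in WT, against 92023, 96781 and 78786 bp in KO. The 3 WT values were nearly equal and the lowest KO value exceeded them all, which the choice of the regions favours here too. In single-read lists the lengths were 1475, 1876 and 1689 bp against 41491, 54079 and 43633 bp.

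**Figure D4:**
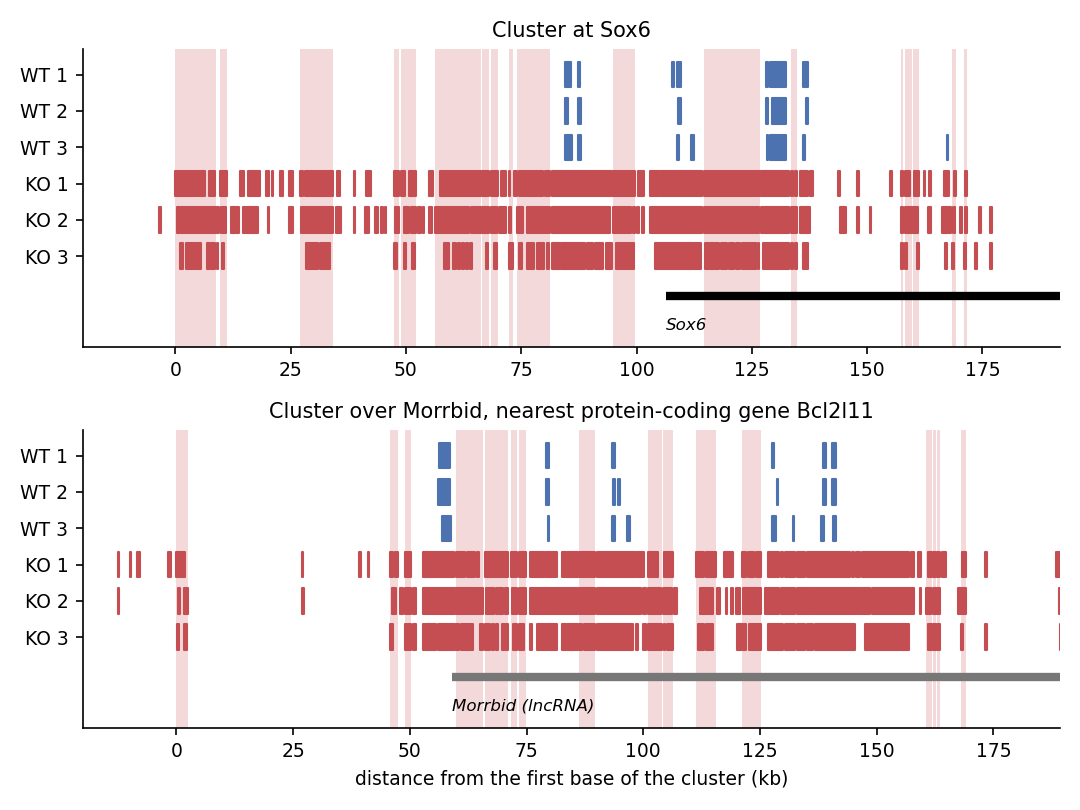
Paired-end peaks of the 6 libraries (bars; WT blue, KO red) along the 2 largest clusters, by distance in kb from the first base of the cluster; shaded bands are KO-only regions and the bar below marks the gene. Peaks cover 5226 to 7552 bp in the WT libraries and 67082 to 111697 bp in the KO libraries at Sox6, and 5431 to 5727 bp and 78786 to 96781 bp at Morrbid.

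The third cluster held 13 KO-only regions inside Myo3b, which encodes an unconventional myosin of actin-rich protrusions. Peaks covered 9062, 4391 and 4458 bp of it in WT and 36546, 38811 and 39969 bp in KO. The fourth, of 10 regions, lay 79.1 kb from Msrb3, a methionine sulfoxide reductase gene, and over the lncRNA genes Gm35062 and 4930471E19Rik, whose start window is printed above. Its peaks covered 6964, 6275 and 6579 bp in WT and 31016, 38133 and 40872 bp in KO. Smaller clusters of 5 lay 16.2 kb from Dlk1 (12563, 7812 and 5767 bp in WT, 25178, 28870 and 24067 bp in KO) and 5.25 kb from Map2k6, a kinase upstream of p38 (797, 791 and 1300 bp in WT, 13728, 15727 and 10408 bp in KO). In all 13 clusters of 5 or more, every KO library had more peak length than every WT library, which the choice of the regions favours. In single-read lists, which the choice did not use but which come from the same libraries, this held in 12 of 13, the exception being the cluster at Mtap. Neither count has a share over other stretches of the genome beside it, so nothing is read from them.

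Of the KO-only regions, 339 (29.0%) lay in genes of 100 kb or more, against 21.8% of WT-only, 19.9% of 6-of-6 and 23.3% of all autosomal regions. A KO-only region lay in the span of 545 protein-coding genes, 437 of them with 1 region, 85 with 2, 23 with 3 or more and 7 with 5 or more; WT-only regions lay in 1061 genes, 20 of them with 5 or more. The median length of the 545 genes was 78.8 kb, against 68.7 kb for genes with a WT-only region, 24.1 kb for genes with any region and 17.5 kb for all autosomal protein-coding genes; a longer gene is more likely to hold a region of any kind. Both kinds of region were found in 56 genes. Without KO replicate 1, 2 or 3, the number of genes with 5 or more was 15, 14 or 15.

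Of the 12 genes with the most KO-only regions (ties in number broken by base pairs in KO-only regions), Myo3b had 14, with peaks over 16144, 9708 and 9768 bp of the gene in WT and 46013, 51934 and 50588 bp in KO. Sox6 had 7, with 7281, 5050 and 6721 bp against 38959, 42393 and 30735 bp. Commd10, whose product takes part in endosomal sorting, also had 7, with 7618, 7872 and 7446 bp against 22479, 21871 and 20907 bp. The groups did not overlap in these 3 genes, which were chosen for peaks present in KO alone.

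Tiam1, a guanine nucleotide exchange factor for RAC, had 6 regions, with 23090, 21625 and 21726 bp against 41102, 41724 and 41613 bp. Trpm6, a magnesium channel, had 5, with 4352, 1422 and 744 bp against 21560, 28441 and 27459 bp. Tcf4, an E-protein transcription factor, had 5, with 6013, 5921 and 5327 bp against 15579, 17806 and 16807 bp. The spread was narrow at Tiam1 and wide in WT at Trpm6. The groups did not overlap at these genes, which were likewise chosen for peaks present in KO alone.

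Mast4, a kinase gene, had 5 regions and a smaller difference in length, 17133, 15910 and 16200 bp against 22293, 19358 and 21005 bp. Parva had 3 regions, with 431, 0 and 0 bp in WT and 10170, 8220 and 9065 bp in KO. Ndst3 and Mtap, the methylthioadenosine phosphorylase gene, also had 3 each. In Gramd1b, which encodes a sterol transfer protein, 4 KO-only regions stood in a gene with more peak length in WT, 41449, 43151 and 43189 bp against 40261, 39572 and 39393 bp. In Maml2, a Notch coactivator, with 4 KO-only regions, the groups overlapped, at 82997, 67798 and 73847 bp against 73057, 80656 and 65164 bp. Every KO library exceeded every WT library in 10 of the 12 genes by paired-end peaks and in 8 of 12 by single-read peaks. The choice of the genes favours this direction. No count over all genes is given beside it, so nothing is read from it.

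**Figure D5:**
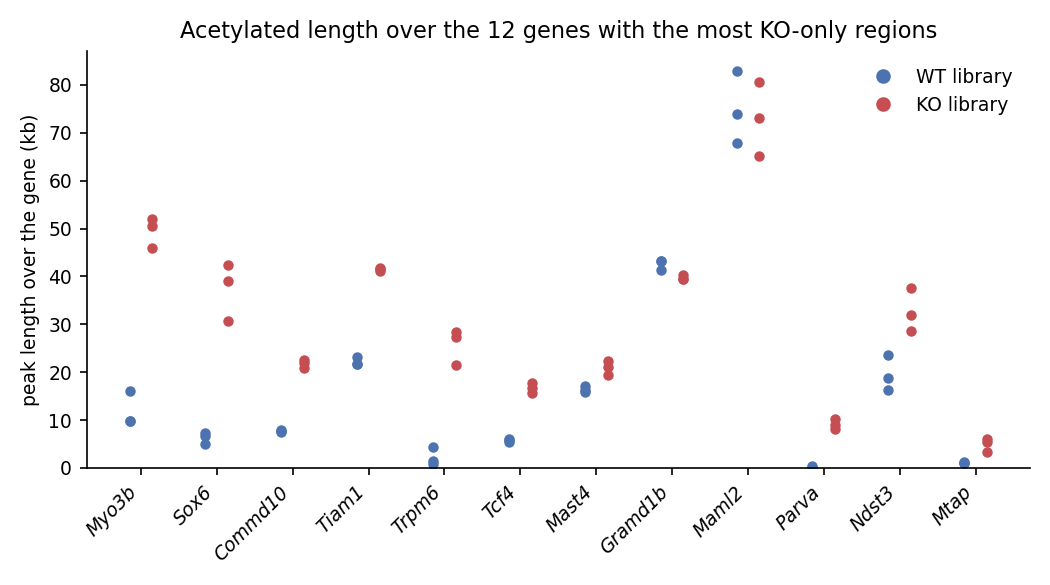
Length covered by paired-end peaks (kb) over each of the 12 genes with the most KO-only regions; each point is 1 library, WT blue and KO red. KO libraries lie above WT libraries in 10 of 12 genes; in Gramd1b they lie below and in Maml2 the groups overlap.

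Genes of the T cell lists were counted where a KO-only region lay in their span or within 5 kb. The share was 13.6% in the Th17 list, 10% in the list of other helper lineages, 16.7% in T cell identity genes, 18.8% in the naive and memory list and 3.85% in the stimulation-induced list. Over all 20665 autosomal protein-coding genes it was 3.15%, and it was 6.8% for WT-only regions. A region of any pattern lay at 21 of 22 Th17, 24 of 24 T cell identity and 16 of 16 naive and memory genes. It lay at 13604 of all 20665, so the lists and all genes are not alike. Single genes held many regions, 40 at Runx1, 80 at Foxp1, 43 at Hdac9 and 24 at Lef1. Of all autosomal regions, 2.11% were KO-only. Of 22 Th17 genes 3 had a KO-only and 7 a WT-only region. Runx1, a RUNX-family transcription factor of T cells, had 2 KO-only regions, with folds of 4.49, 4.06 and 5.41 in the first and 5.54, 3.37 and 4.96 in the second, and also 2 WT-only regions. Tgfbr2, a receptor for TGF-beta, which Th17 differentiation needs, had folds of 4.30, 5.36 and 5.94. In the authors' deposited table the log2 fold change was 1.86 at the first Runx1 region and 2.19 at Tgfbr2, and the second Runx1 region overlapped no placed region.

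Of 20 genes of other helper lineages, the cytokine genes Il4 and Il13, signatures of Th2 cells, had 1 KO-only region each, and 3 genes had a WT-only region. The region inside Il4 had folds of 6.88, 5.04 and 6.59, and that 4.62 kb from Il13 had 3.21, 6.33 and 8.35. Both belonged to a cluster of 4 KO-only regions that reached into Kif3a. In the authors' deposited table their log2 fold changes were 1.96 and 1.76, both called higher.

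Among 24 T cell identity genes, 4 had a KO-only and 4 a WT-only region. The 4 were Bcl11b, a regulator of T cell commitment, with folds of 2.71, 3.45 and 5.29; Ptprc, which encodes CD45, with 4.70, 3.79 and 3.48; Lef1, a WNT-pathway factor of naive T cells, with 3.24, 2.89 and 3.18; and Vav1, a guanine nucleotide exchange factor of receptor signalling, with 4.78, 4.41 and 3.65. None of these reached a fold of 6 in any library. The best window at Bcl11b had a log2 fold change of 0.28 and was not called in the authors' deposited table (FDR 0.580), and the other 3 regions overlapped no placed region of it. In the naive and memory list, 3 of 16 genes had a KO-only region, Lef1 again and the transcription factors Foxp1 (3.73, 3.35 and 3.48) and Klf7 (3.02, 3.36 and 3.60), and 3 had a WT-only one. Foxp1 held 6 WT-only regions beside its 1 KO-only region.

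Of 26 stimulation-induced genes, Rel, an NF-kB subunit, was the 1 with a KO-only region (4.64, 3.65 and 3.59; no placed table region), and 5 had a WT-only region. In glucose uptake and glycolysis, Gpi1 alone of 19 genes had a KO-only region, and 3 had a WT-only region. Gpi1 encodes glucose-6-phosphate isomerase, the second enzyme of glycolysis. Its intragenic region was strong, with folds of 10.7, 7.31 and 9.31 and a log2 fold change of 2.36 in the authors' deposited table. In the list of acetyl-CoA supply and histone acetylation, Hdac9, a class IIa deacetylase gene, was the 1 of 19 with a KO-only region (3.43, 3.57 and 4.66), and it held 7 WT-only regions.

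Of markers of other cell types, none of 9 B cell, 12 myeloid and 8 erythroid and mast cell markers had a KO-only region, and 1 of 11 CD8 T and natural killer cell markers did, Klrk1, beside the 3.15% over all genes. WT-only regions were found at 2 B cell and 2 myeloid markers. A region of any pattern lay at 5 B cell, 7 myeloid, 4 erythroid and mast cell and 7 CD8 T and natural killer cell markers. Of 25 developmental transcription factors, Sox6 and Tcf4 had KO-only regions, and of 25 neuronal adhesion, synapse and channel genes Dlgap1, a postsynaptic scaffold gene, had 1 (6.38, 2.41 and 7.46), with a log2 fold change of 0.93 in the authors' deposited table. WT-only regions were found at 3 genes of each of the last 2 lists. No list was tested against the share over all genes.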

How the data were processed

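Peak lists of 6 ChIP libraries (3 WT, 3 KO) were used; the 6 input samples were not analysed here. The submitters' processing notes list MACS2 2.2.6 and deepTools 3.3.2, the aligner Bowtie2 2.3.5.1, the trimmer cutadapt 2.8 and bcl2fastq 2.20.0.422, with the builds mm10 and GRCm38. The use of input as control, and how the differential table was scaled and tested, were not given in the sources used here. Peaks were deposited as lists called per library, once on paired-end fragments (used throughout) and once on single reads. Each deposited peak has a score, a linear ratio (its fold enrichment over background) and the -log10 of its p-value and q-value. The authors' deposited table has 40909 regions of 150 bp windows, each with a p-value, its FDR and the log2 fold change in the best window; it holds no value per library. Regions past an FDR of 0.05 have deposited coordinates; others were placed by their best window alone and 28 could not be placed, so overlaps with uncalled regions are undercounted. The deposited score of a listed region was not used.

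Computed here with Python 3.11.15, numpy 2.4.6, pandas 2.3.3 and scipy 1.17.1: union regions (overlap of at least 1 bp), their location against the RefSeq genes of GRCm38.p6, clusters, and peak heights and mean coverage, solved from the fold and p of each peak. For 100% of peaks the recovered height gave back the deposited -log10 p to 0.01, after undoing a scaling of 0.890 and 0.922 in WT replicates 1 and 2; the recovery was tested on simulated data. A deeper library calls weaker peaks, so presence depends on depth. Strand and start sites come from RefSeq start windows, which 79.9% of protein-coding genes have and chromosome 18 lacks. Of 242 entries in 13 gene lists, 236 matched autosomal genes.

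The regions named are the 10 of highest mean fold, the 5 widest, and the 5 just inside and just outside the threshold. The genes named are the 12 with the most KO-only regions, the 12 with the highest mean fold at an end, and list members with a KO-only region (1 of these is not reported here), without predicted genes (Gm and a number) and Rik symbols. LncRNA genes, printed windows and clusters were named after their values were seen. The members and lists were chosen with earlier results of these data known. Alternatives were single-read peaks, a -log10 q of at least 5, equal peak numbers, joining within 500 bp, 50% coverage, other distances, FDR under 0.01, and leaving out each library. The log2 fold changes of the deposited table were also moved to mean coverage scaling.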

Additional observations from a re-analysis of the deposited data

How the results depend on the processing

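The number of KO-only regions was 637 when the peaks of each KO library had to cover at least 50% of the region, and 1348 to 2193 when 1 library was left out; the other alternatives stayed within 1.5 times 1167. These counts hide turnover: single-read lists gave 1390 regions, which overlapped 171 (14.7%) of the 1167, and a -log10 q of at least 5 kept 680 (58.3%). Genes with 5 or more regions numbered 7, and 15 with single-read lists, 2 each with -log10 q of at least 5, with peaks within 500 bp joined and with 50% coverage, and 8 to 15 with 1 library left out. The median width of 967 bp became 546 bp with single-read lists, 1074 bp with -log10 q of at least 5, 1207 bp with joining, 742 bp with 50% coverage, and 713 to 1001 bp with 1 library left out. The share over genes was 63.1% with joining, and 58.5% to 61.0% with 1 library left out. The share at gene ends was 6.00% within 1 kb, 18.8% within 5 kb and 8.89% to 10.1% with 1 library left out. The share higher in the authors' deposited table was 44.5% at an FDR under 0.01. It was 47.9% with the log2 fold changes moved upward to mean coverage scaling, a change that cannot lower it. The difference in mean coverage, -1.46, ran from -1.72 to -1.21 with 1 library left out; with same-numbered libraries paired as a replicate block its two-sided exact sign-flip permutation p was 0.25, the smallest that 3 pairs allow. The labels do not say that numbers mark shared animals or batches. The causes of these shifts were not tested. Depth limits what can be called, at 10 to 15 fragments.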

Other observations

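The X chromosome, which was outside the rule, held a further 28 regions with a peak in 3 of 3 KO and 0 of 3 WT libraries. They were not described because KO replicate 3 differed from the other libraries in its chromosome Y peaks. Their share of all regions on the X chromosome is not given here.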
